A study of Mus musculus with 5 samples.

Results

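Small RNAs of mouse zygotes were compared with those of spermatozoa, the gamete that enters the egg at fertilization. Members were chosen by library and by depth: every entry listed as a miRNA, snoRNA, piRNA or endogenous small interfering RNA (endo-siRNA) in either library was taken, and an entry counted as measured when it had at least 100 reads over the pair. Measured were 308 of 1041 miRNA entries with a read, 101 of 180 snoRNA entries, 5039 of 174649 piRNA entries and 24086 of 188998 endo-siRNA entries. The pair made up 2 of the 5 libraries of the series. The zygote library held 15416 cells pooled 15 to 18 hours after fertilization. They came from C57BL/6 females, 4 to 5 weeks old and superovulated with PMSG and HCG, that had mated with DBA/6J males. Cumulus cells were taken off with hyaluronidase and the zona with acidic Tyrode. The spermatozoa library came from the cauda epididymis and vas deferens of mature CD-1 males, after a Percoll gradient and a hypo-osmotic shock. The sequenced spermatozoa were thus not those of the zygotes' fathers, and strain, preparation and cell type cannot be told apart. The oocyte library, used below only for arm shares and the level of miR-202, also came from females 4 to 5 weeks old. Each group was 1 library, so no difference below has a replicate check and none was tested.

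MicroRNAs are cut by Dicer from hairpin precursors and guide Argonaute proteins to matching messages, mostly through the seed, bases 2 to 8. Mouse spermatozoa are known to carry a compact small RNA load, part of it acquired in the epididymis, while the zygote starts with the much larger store of the egg. Endo-siRNAs are a Dicer product known from mouse oocytes, piRNAs guide PIWI proteins against transposons in the germ line, and snoRNAs guide the modification of ribosomal and spliceosomal RNA. In these bulk libraries, fewer cells of a type and less RNA per cell cannot be told apart.

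The 4 tables held 43260042 reads in zygotes and 21836360 in spermatozoa. Of these, miRNAs took 5.38% in zygotes and 5.57% in spermatozoa, and snoRNAs 1.43% in zygotes and 4.75% in spermatozoa. Entries listed as piRNAs took 22.1% in zygotes and 83.4% in spermatozoa, and endo-siRNAs 71.1% in zygotes and 6.27% in spermatozoa. Levels are given as RPM, reads per 1000000 of all reads that the library had in that class, so a class that took more reads in one library does not enter the ratio. The depth of a class differed between the libraries: zygotes had 1.91 times the miRNA reads of spermatozoa, 0.524 times the piRNA reads and 22.5 times the endo-siRNA reads. Square brackets give exact 95% intervals, which cover counting error only. Where a library had 0 reads, the ratio is a lower bound computed from 3 reads in that library. An entry is called higher or lower where it was at least 4-fold apart.

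Some of the miRNAs named below are shown with the seed in capitals, as listed in RefSeq for GRCm38.p6. The leaders of spermatozoa, miR-143-3p and miR-34c-5p, had no sequence there and are not shown. The first set was more abundant in zygotes, and its first 3 members share the seed AAGUGCU.
miR-291a-3p: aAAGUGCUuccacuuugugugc
miR-294-3p: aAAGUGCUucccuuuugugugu
miR-295-3p: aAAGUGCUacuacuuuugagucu
miR-182-5p: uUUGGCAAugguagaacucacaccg
miR-183-5p: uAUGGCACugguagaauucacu
miR-30e-5p: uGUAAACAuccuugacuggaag
miR-30a-5p: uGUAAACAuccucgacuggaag
miR-3471: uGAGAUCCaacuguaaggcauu
The second set was more abundant in spermatozoa, and it holds 3 pairs with a common seed.
miR-34b-3p: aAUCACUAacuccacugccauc
miR-34c-3p: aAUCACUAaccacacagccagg
miR-34b-5p: aGGCAGUGuaauuagcugauugu
miR-449a-5p: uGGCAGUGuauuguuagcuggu
miR-10a-5p: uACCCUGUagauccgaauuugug
miR-10b-5p: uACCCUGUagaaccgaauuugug
miR-451a: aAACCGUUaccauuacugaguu
The third set gives both arms of 2 hairpins whose leading arm was not the same in the libraries.
miR-871-5p: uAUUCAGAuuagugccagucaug
miR-871-3p: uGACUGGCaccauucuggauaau
miR-106b-5p: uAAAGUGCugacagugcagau
miR-106b-3p: cCGCACUGuggguacuugcugc

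Among the 308 measured miRNAs, 81 (26.3%) were called higher in zygotes and 79 (25.6%) lower, and the median log2 ratio was 0.13. The 81 higher miRNAs took 43.2% of the miRNA reads of zygotes and 2.29% of those of spermatozoa. The 79 lower ones took 4.09% of zygote reads and 62.0% of spermatozoa reads. Some abundant miRNAs of each library were therefore among the calls, but most were not. Of the 50 most abundant of zygotes 16 were higher and 4 lower. Of the 50 most abundant of spermatozoa 19 were lower and 3 higher. Of the higher miRNAs, 61 had under 100 reads in spermatozoa, and of the lower ones 38 had under 100 in zygotes, so these entered through the library in which they were abundant. At the minimum, miR-494-3p with 95 zygote and 6 spermatozoa reads was just inside, and miR-877-5p with 71 zygote and 28 spermatozoa reads just outside. Another scaling shifted all miRNA ratios alike, by −0.05 to 0.96 on the log2 scale. Under the authors' deposited factor, which corrects for no class total, 105 were higher and 48 lower. Of the lower entries named below, miR-30b-5p, miR-669a-3p and miR-192-5p came within 4-fold under the deposited, TMM and DESeq2 factors, miR-106b-3p under the deposited and DESeq2 factors, and miR-34a-5p, miR-25-3p, miR-19a-3p, miR-191-5p and miR-195a-5p under the deposited factor alone.

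Both libraries put about the same part of their miRNA reads on few entries, but these were only partly the same. Reads of 6 miRNAs in zygotes and of 3 in spermatozoa made up 50% of the class. The zygote's most abundant entries were let-7f-5p at 148063 RPM, miR-3471, miR-182-5p, miR-30e-5p and miR-30a-5p. Those of spermatozoa were miR-143-3p at 230279 RPM, miR-34c-5p, let-7f-5p, miR-148a-3p and let-7g-5p. Of the 10 most abundant of each library 5 were shared, and of the 50 most abundant 32. Among the shared leaders, let-7f-5p, a member of the let-7 family of conserved regulators of cell differentiation, stood at 52047 RPM in spermatozoa, a ratio of 2.84 [2.82 to 2.87]. miR-21a-5p had 36834 RPM in zygotes and 18857 RPM in spermatozoa, a ratio of 1.95.

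**Figure D1:**
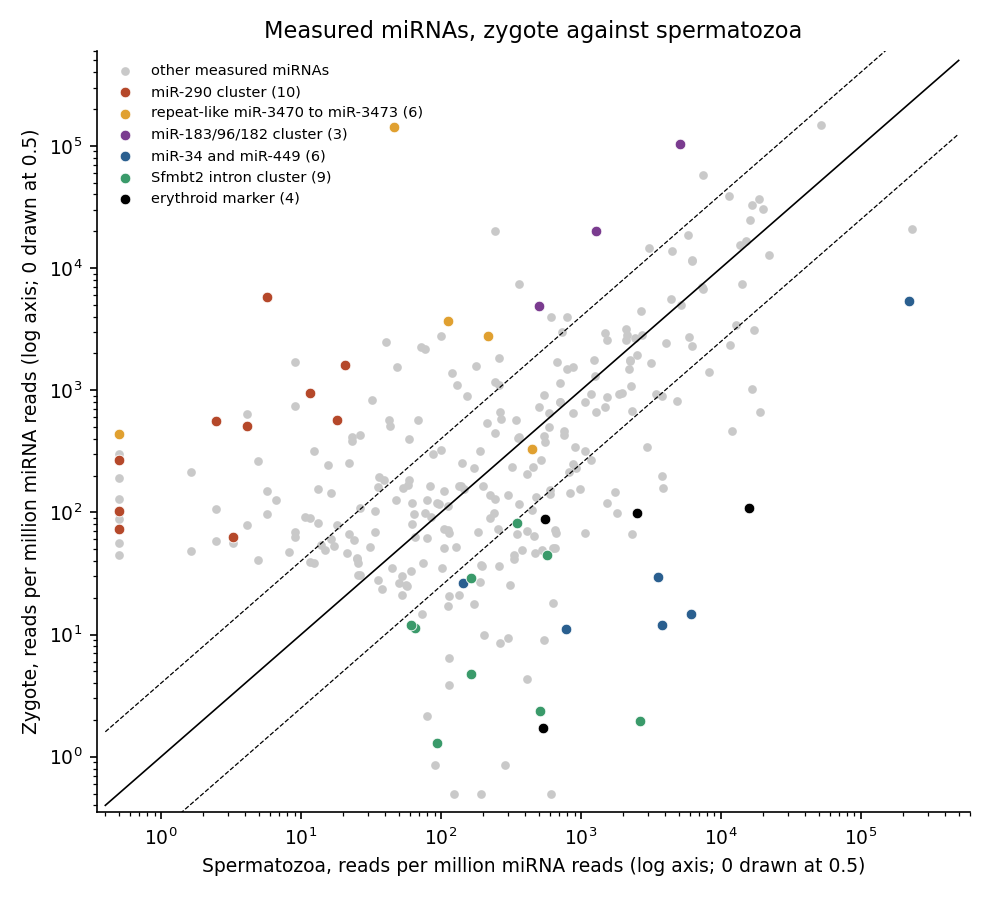
Each point is 1 of the 308 measured miRNAs, with its level in zygotes (vertical, log axis) and in spermatozoa (horizontal, log axis) in RPM; the solid line marks equal levels and the dashed lines a 4-fold difference. The miR-290 cluster and the cluster of miR-183, miR-96 and miR-182 lie above the upper dashed line, and miR-34 and miR-449, the Sfmbt2 intron cluster and the erythroid markers below the lower one.

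The miR-290 cluster, the main miRNA cluster of early mouse embryos and embryonic stem cells, was present in zygotes and nearly missing from spermatozoa. Its 14 entries held 24663 reads in zygotes and 80 in spermatozoa, where 7 were at 0. Within the cluster the level was uneven: miR-291a-3p led, with 13530 reads (5814 RPM) in zygotes and 7 in spermatozoa. miR-295-3p had 3767 reads in zygotes and 25 in spermatozoa, a ratio of 78.8 [53.3 to 122]. miR-294-3p had 2198 reads in zygotes and 14 in spermatozoa, a ratio of 82.0 [48.8 to 150]. All 10 measured members, of 14 in the tables, were at least 4-fold higher, against 26.3% of all measured miRNAs. Each passed the minimum through its zygote reads, so this count is a description. The 3 arms printed above with the seed AAGUGCU carried most of the cluster's reads in zygotes. The genes of miR-294 and miR-295 lie next to each other at chr7:3220641-3220724 and chr7:3220773-3220841 on the plus strand of GRCm38, over an exon of Nlrp12 on the opposite strand.

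The cluster of miR-183, miR-96 and miR-182, known from sensory organs and germ cells, carried a larger part of the zygote's reads. miR-182-5p had 240576 reads in zygotes (103381 RPM) and 6219 reads in spermatozoa (5113 RPM), a ratio of 20.2 [19.7 to 20.7]. miR-183-5p had 46561 reads in zygotes and 1550 in spermatozoa, a ratio of 15.7 [14.9 to 16.5]. miR-96-5p had 11423 reads in zygotes and 615 in spermatozoa, a ratio of 9.71 [8.95 to 10.6]. All 3 had well over 100 reads in both libraries, and the intervals of the 3 ratios do not overlap, so members of this single cluster were not higher by the same factor. Mir182 and Mir183 lie at chr6:30165918-30165992 and chr6:30169668-30169737 on the minus strand.

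The let-7 and miR-30 families were abundant in both libraries and leaned to zygotes. The 23 let-7 entries summed to 241889 RPM in zygotes and 112146 RPM in spermatozoa. Of 14 measured let-7 entries, 2 were higher by 4-fold or more, let-7j at 4.25-fold [3.78 to 4.79] and let-7f-1-3p, and none lower, against 26.3% and 25.6% of all measured miRNAs. The other 12 were within 4-fold, and the list's median log2 ratio of 0.78 stands beside 0.13 for all miRNAs. The miR-30 family did not move as a block. miR-30e-5p had 57915 RPM in zygotes and 7399 RPM in spermatozoa, a ratio of 7.83 [7.66 to 7.997]. miR-30b-5p had 2332 RPM in zygotes and 11578 RPM in spermatozoa, 4.96-fold lower [4.81 to 5.12]. miR-30a-5p, which differs from miR-30e-5p outside the seed as the printed sequences show, was 3.37 times as high in zygotes. Of 9 measured members, 3 were higher (33.3%) and 1, miR-30b-5p, was lower (11.1%), against 26.3% and 25.6% of all measured miRNAs. With the TMM factors 5 were higher and none was at least 4-fold lower, although miR-30e-5p stayed above and miR-30b-5p below equal levels under each scaling tried.

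Entries numbered miR-3470 to miR-3473, some of which are annotated in repeat sequence, summed to 151203 RPM in zygotes and 1300 RPM in spermatozoa. miR-3471 had 334282 reads in zygotes and 56 in spermatozoa. Its gene, Mir3471-1, lies at chr4:10845500-10845630 on the minus strand, outside other annotated genes. miR-3470a had 8568 reads in zygotes and 137 in spermatozoa, 32.7-fold higher [27.6 to 39.0]. miR-3472, within an intron of Rtl4 on chromosome X, had 1010 reads in zygotes and 0 in spermatozoa, at least 176-fold higher. miR-3473b was not like these: it had 329 RPM in zygotes and 451 RPM in spermatozoa. The tables hold no reads, so whether these reads were miRNAs was not tested. Other entries high in zygotes were miR-335-5p, from an intron of the imprinted gene Mest, with 5731 reads in zygotes and 49 in spermatozoa, and miR-202-5p, a gonadal miRNA, with 6458 reads in zygotes and 121 in spermatozoa.

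The miR-34 and miR-449 family is known from late spermatogenesis and from ciliated cells, and miR-34c is a known component of mouse sperm. Its 10 entries summed to 5461 RPM in zygotes and 236142 RPM in spermatozoa. All 6 measured entries were at least 4-fold lower in zygotes, and 5 with the deposited factor, against 25.6% of all measured miRNAs. Of these 6, 5 had under 100 reads in zygotes and passed the minimum through spermatozoa, so the count is a description. miR-34c-5p had 12481 reads in zygotes and 269787.5 in spermatozoa, and it took most of the family's reads in both libraries. miR-34b-3p had 34 reads in zygotes and 7399 in spermatozoa, 416-fold lower [298 to 602]. miR-34c-3p had 28 reads in zygotes and 4604 in spermatozoa, 315-fold lower [217 to 474]. miR-449a-5p had 69 reads in zygotes and 4299 in spermatozoa, 119-fold lower [94.0 to 154]. miR-34a-5p, the member encoded alone, was the least far apart, with 61 reads in zygotes and 174 in spermatozoa, 5.46-fold lower [4.06 to 7.43]. The arms of the miR-34c hairpin did not differ by the same factor: miR-34c-5p was 41.4-fold lower [40.6 to 42.1], and the interval of its 3p arm lies above that. Mir34b and Mir34c lie at chr9:51103562-51103645 and chr9:51103034-51103110 on the minus strand, in an intron of Btg4 on the opposite strand.

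Entries listed under the Sfmbt2 intron cluster, a large rodent miRNA cluster within an imprinted gene, were lower in zygotes. Members were taken by name, as all entries numbered miR-297, miR-466, miR-467 and miR-669, and their position was not checked. These 74 entries summed to 285 RPM in zygotes and 5451 RPM in spermatozoa. All 9 measured entries were at least 4-fold lower in zygotes, against 25.6% of all measured miRNAs. Of these 9, 7 had under 100 reads in zygotes and passed the minimum through spermatozoa, so the count is a description. It was 8 with the TMM, 7 with the DESeq2 and 5 with the deposited factors. miR-466f-3p took much of the level in spermatozoa, with 4.56 reads in zygotes and 3192 in spermatozoa. The 9 measured entries ranged down to miR-669a-3p at 4.24-fold lower [3.57 to 5.06], with 192 reads in zygotes and 426 in spermatozoa. Some of these counts, such as those of miR-466f-3p, are not whole, and how a read that matched several entries was counted is not given in the sources used here.

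The miR-17/92 clusters, growth-promoting miRNAs made from long transcripts of several hairpins, showed opposite directions among members of the same transcript. miR-17-5p had 3995 RPM in zygotes and 610 RPM in spermatozoa, 6.55-fold higher [6.08 to 7.07]. miR-92a-3p had 3953 RPM in zygotes and 802 RPM in spermatozoa, 4.93-fold higher [4.61 to 5.27]. miR-18a-5p, encoded between them, had 147 RPM in zygotes and 1743 RPM in spermatozoa, 11.8-fold lower [10.5 to 13.3]. miR-19a-3p was 5.86-fold lower [4.90 to 7.03], and miR-20a-5p was within 4-fold. In the miR-106b cluster miR-25-3p was 5.98-fold lower and miR-106b-3p 5.22-fold lower, while miR-106b-5p was within 4-fold at a ratio of 2.16 [1.91 to 2.44]. Of the 12 measured entries of the 3 clusters 2 were higher and 4 lower, against 26.3% and 25.6% of all measured miRNAs.

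The Dlk1-Dio3 cluster, a large imprinted miRNA cluster, summed to 6485 RPM in zygotes and 3403 RPM in spermatozoa. Of 20 measured entries 7 were higher (35%) and none lower, against 26.3% and 25.6% of all measured miRNAs, and 15 of the 20 had under 100 reads in spermatozoa. Among them was miR-541-5p at 26.1-fold higher [19.0 to 36.8]. miR-410-3p had 569 reads in zygotes and 19 in spermatozoa, 15.7-fold higher [9.93 to 26.2]. The X-linked cluster known from the testis was abundant in both, at 55741 RPM in zygotes and 37778 RPM in spermatozoa. Of its 30 measured entries 21 were within 4-fold, 2 were higher (6.67%) and 7 lower (23.3%), against 26.3% and 25.6% of all measured miRNAs, and 4 were lower with the TMM factors. Its median log2 ratio was −0.49, and 0.46 under the deposited factor, so no direction is given for it. One entry set its sum apart: miR-871-3p had 47036 reads in zygotes and 295 in spermatozoa, 83.3-fold higher [74.3 to 93.8].

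The miR-10 family, encoded within the Hox clusters, was among the leaders of spermatozoa. miR-10b-5p had 1548 reads in zygotes and 23179.5 in spermatozoa, 28.6-fold lower [27.2 to 30.2]. miR-10a-5p had 2369 reads in zygotes and 20208.5 in spermatozoa, 16.3-fold lower [15.6 to 17.0]. Both share the seed ACCCUGU, whose summed level was 1683 RPM in zygotes and 35670 RPM in spermatozoa. The related miR-100-5p was higher, at 1165 RPM in zygotes and 244 RPM in spermatozoa. Beyond the lists, miR-425-5p and miR-191-5p, whose hairpins are neighbours in the genome, were both lower. miR-425-5p had 464 RPM in zygotes and 11986 RPM in spermatozoa, 25.8-fold lower [24.3 to 27.5], and miR-191-5p was 5.49-fold lower [5.34 to 5.63]. miR-7210-5p had 0 reads in zygotes and 748 in spermatozoa. Of the miR-29 family 2 of 3 measured members were lower, and 1 of 3 with the deposited factor, against 25.6% of all measured miRNAs. Of the family of miR-148 and miR-152 all 4 measured members were within 4-fold, against 48.1% of all measured miRNAs. In the miR-15/16 family 3 of 10 measured entries were higher, a share near the 26.3% of all measured miRNAs, among them miR-322-5p at 11.4-fold [9.67 to 13.5] and miR-503-5p, which are neighbours on chromosome X, and miR-195a-5p was lower.

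**Figure D2:**
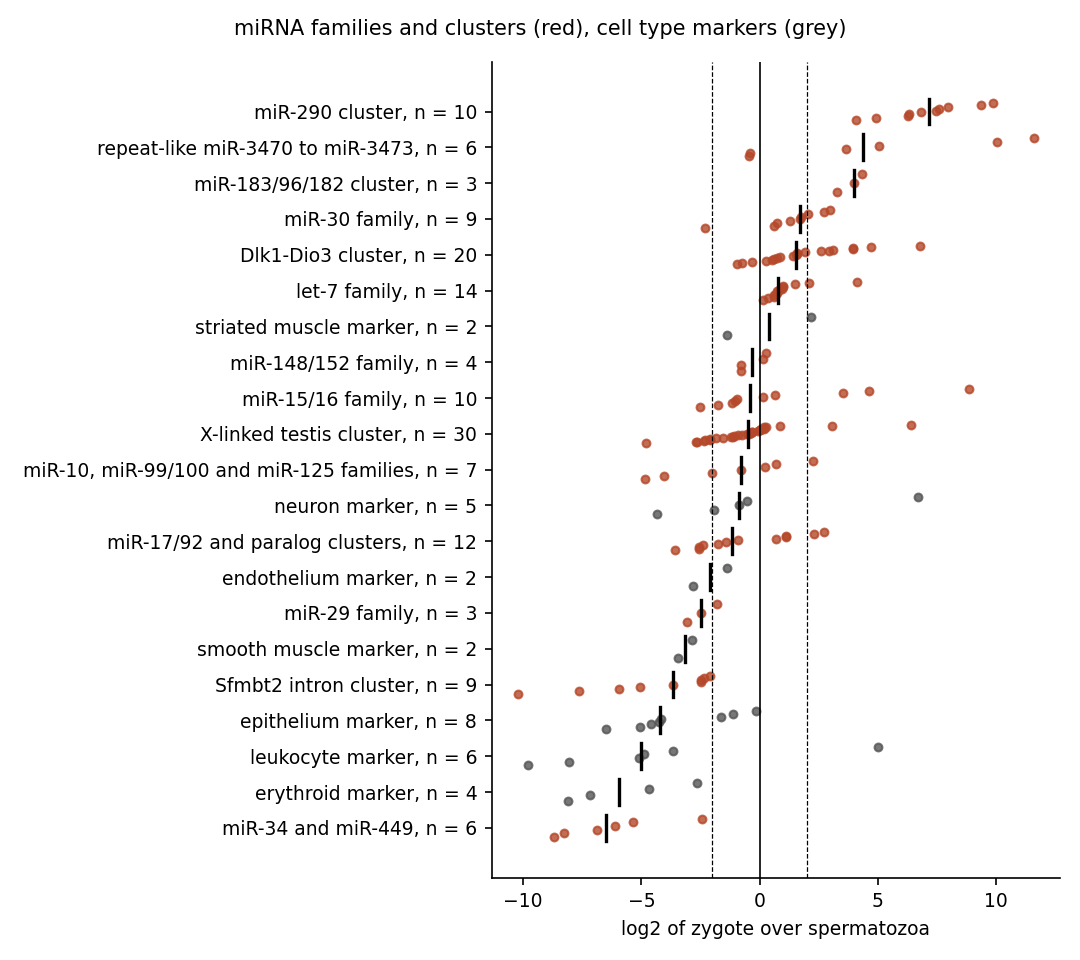
Each point is the log2 ratio of zygotes over spermatozoa of 1 measured miRNA, in rows by family, cluster (red) or cell type marker list (grey) with the number of points; black ticks are medians, and dashed lines mark 4-fold. The miR-290 cluster has the highest median (7.15, or 6.29 with entries at 0 in spermatozoa set to 3 reads there) and miR-34 and miR-449 the lowest (−6.50), while the miR-17/92 and miR-30 rows reach past the dashed lines on both sides.

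Markers of other cells stood beside these differences. The 5 erythroid entries summed to 330 RPM in zygotes and 19450 RPM in spermatozoa, and none was at 0 in either library. All 4 measured ones were lower, and 3 with the deposited factor, against 25.6% of all measured miRNAs. The fifth, miR-486-3p, was under the minimum and went the other way. It had 76.5 reads in zygotes and 15 in spermatozoa, 2.67-fold higher [1.51 to 4.96]. miR-451a, the defining erythroid miRNA, had 254 reads in zygotes and 19257 in spermatozoa, 145-fold lower [128 to 165]. The 9 leukocyte entries, of which 3 were at 0 in zygotes and 1 in spermatozoa, summed to 1752 RPM in zygotes and 4647 RPM in spermatozoa. Of the 6 measured ones 5 were lower, against 25.6% of all measured miRNAs, and miR-155-5p was 32.0-fold higher. Among the lower ones, miR-142-5p was at 0 in zygotes with 235 reads in spermatozoa. The 14 epithelial entries summed to 10051 RPM in zygotes and 23750 RPM in spermatozoa, with miR-205-5p 95.7-fold lower [51.6 to 201] and miR-200c-3p at 6718 RPM in zygotes and 7404 RPM in spermatozoa. Smooth muscle entries summed to 20992 RPM in zygotes and 230783 RPM in spermatozoa, nearly all of it miR-143-3p. Neuron entries summed to 889 RPM in zygotes and 1675 RPM in spermatozoa, and striated muscle entries to 510 RPM in zygotes and 954 RPM in spermatozoa. Endothelial entries summed to 96.7 RPM in zygotes and 375 RPM in spermatozoa. The gonadal miRNA miR-202, listed here for gonadal soma, went the other way, at 2789 RPM in zygotes and 103 RPM in spermatozoa over both arms. In the oocyte library it had 5723 RPM, and which cells it came from was not tested. The liver miRNA was listed with 4 reads in zygotes and 0 in spermatozoa. The summed erythroid, leukocyte, epithelial, smooth muscle and endothelial levels were thus lower in zygotes, while the order of the neuron and striated muscle sums turns under the deposited factor. The part of other cells in the miRNAs lower in zygotes was not tested.

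A miRNA's seed sets most of its targets, so levels were also summed over miRNAs with a common seed. RefSeq gave a mature sequence for 1090 of 1316 entries, with 92.3% of the miRNA reads of zygotes but 49.8% of those of spermatozoa, and sums and counts over seeds cover these entries only. Without one were miR-143-3p, miR-34c-5p, miR-30b-5p and miR-30d-5p, among others. The let-7 seed GAGGUAG summed to 240360 RPM in zygotes and 111684 RPM in spermatozoa. The seed AUCACUA of the miR-34b and miR-34c 3p arms summed to 26.6 RPM in zygotes and 9868 RPM in spermatozoa. Of 37 seeds with at least 2 measured members that had a sequence, 4 had both a higher and a lower one. In one of these, AUUGCAC, miR-92a-3p was higher and miR-25-3p lower, and the summed level was 6537 RPM in zygotes and 6886 RPM in spermatozoa. In another, UGACCUA, miR-215-5p had 298 reads in zygotes and 0 in spermatozoa, while miR-192-5p was 4.23-fold lower [4.02 to 4.46].

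A hairpin gives a miRNA from each arm, and the share of an arm is a ratio within 1 library, which no scaling between libraries changes. Both arms were listed for 408 precursors, and 115 had at least 100 reads over both arms in each library. The same arm led in both libraries in 108 of 115 (93.9%), the 5p arm in 64 and the 3p arm in 44. The median difference of the 5p share was 1.28 percentage points, and 22 precursors differed by 10 points or more. Arm use was thus mostly common to both libraries, with few wide exceptions.

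The widest was miR-871 of the X-linked testis cluster, at chrX:66810428-66810504. Its 5p arm had 2503 of 49539 reads in zygotes, a share of 5.05% [4.86 to 5.25], and 2756.5 of 3051.5 reads in spermatozoa, 90.3% [89.2 to 91.3]. The 5p arm was within 4-fold, at 1076 RPM in zygotes and 2266 RPM in spermatozoa, so the difference lay mainly in the 3p arm. miR-872, in an intron of Ift74, had a 5p share of 24.8% in zygotes and 72.3% in spermatozoa. miR-106b, in an intron of Mcm7, went the other way, with a 5p share of 89.6% in zygotes and 43.3% in spermatozoa. The others with another leading arm were miR-151, with a 5p share of 46.0% in zygotes and 86.1% in spermatozoa, miR-463, miR-126a and miR-28a. For miR-126a the 5p share in spermatozoa was 51.1% [46.4 to 55.8], an interval that holds 50%, so its leading arm there is not set. miR-31 kept its leading arm but had a 5p share of 99.0% in zygotes and 58.8% in spermatozoa. The oocyte library of the series had a 5p share of 3.46% for miR-871, 30.9% for miR-872 and 90.2% for miR-106b, nearer to zygotes, as in 6 of the 7 precursors with another leading arm. The exception was miR-463, with 50.9% in oocytes, 35.9% in zygotes and 59.7% in spermatozoa.

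**Figure D3:**
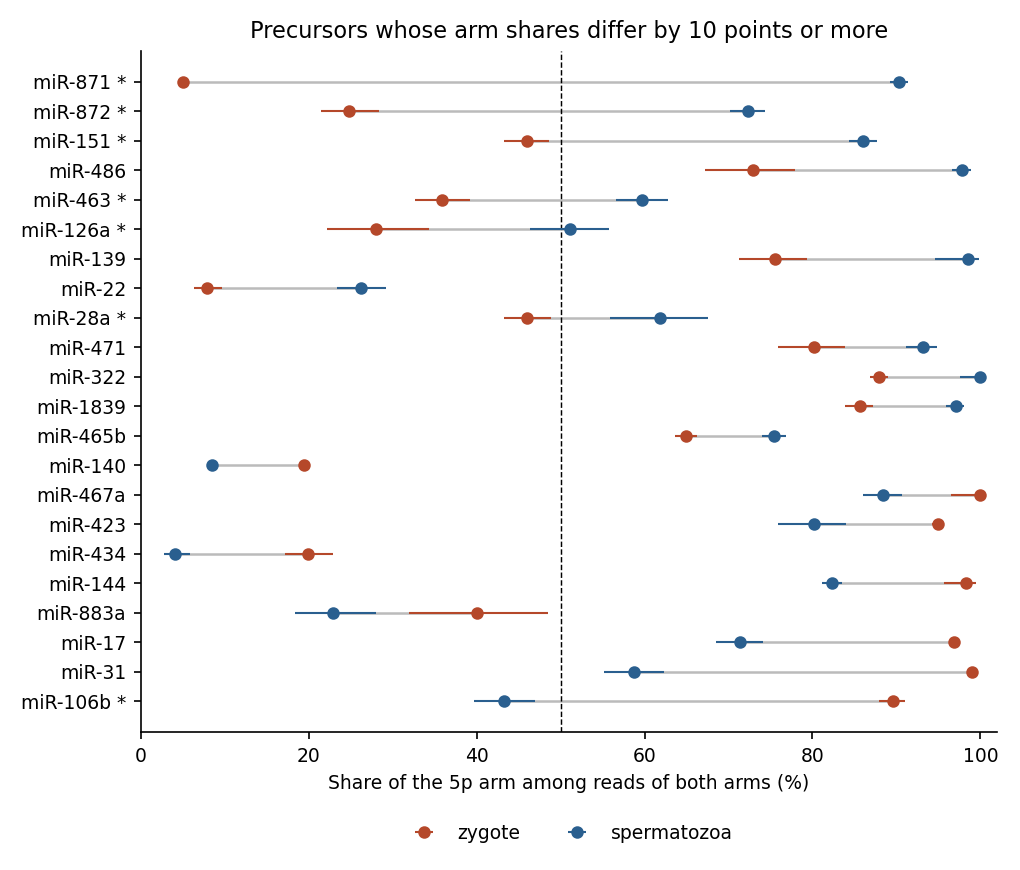
The 22 precursors whose 5p share differed by 10 points or more are shown with the share of the 5p arm among reads of both arms in zygotes (red) and spermatozoa (blue), and horizontal bars give exact 95% intervals. Stars mark the 7 precursors with another leading arm, and miR-871 spans from 5.05% in zygotes to 90.3% in spermatozoa.

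Reads listed under snoRNAs are of 18 to 32 nucleotides and so can only be pieces of these longer RNAs. SNORD60 alone, a C/D box snoRNA at chr17:24528476-24528553, took 76.3% of the class in zygotes and 88.1% in spermatozoa. Of 101 measured entries 48 (47.5%) were at least 4-fold higher and 9 (8.91%) lower in zygotes, and 30 of the higher ones had under 100 reads in spermatozoa. This split depended on the scaling, since 21 were higher and 19 lower when reads were scaled to all 4 classes, and 31 and 11 when SNORD60 was left out of the totals. The difference between kinds of snoRNA is not changed by a scaling. The 15 measured H/ACA box entries had a median log2 ratio of 3.87, and the 76 C/D box entries one of 1.47, which was −0.32 with reads scaled to all 4 classes, where the H/ACA median was 2.08. It did change with the minimum: at 20 reads over the pair, 41 H/ACA box entries had a median of 1.42 and 88 C/D box entries one of 1.13. Among reads outside SNORD60, Cajal body RNAs, which guide the modification of spliceosomal RNAs, took 16.1% in zygotes and 0.262% in spermatozoa. H/ACA box entries took 6.96% in zygotes and 1.38% in spermatozoa, and C/D box entries 75.9% in zygotes and 97.5% in spermatozoa.

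The Cajal body share was mostly scaRNA6, from an intron of Atg16l1, with 21896 reads in zygotes and 131 in spermatozoa, 290-fold higher [244 to 347]. SNORD64, an imprinted snoRNA from the Prader-Willi region at chr7:59978808-59978874, had 595.5 reads in zygotes and 3 in spermatozoa, 345-fold higher [118 to 1678]. SNORA70, in the X-linked ribosomal protein gene Rpl10, had 754 reads in zygotes and 10 in spermatozoa. SNORD63 had 35030 reads in zygotes and 1663 in spermatozoa, 36.6-fold higher [34.8 to 38.5], and SNORD21, in Rpl5, was 39.8-fold higher. On the other side, SNORD32 had 439 reads in zygotes and 64220 in spermatozoa, 84.2-fold lower [76.7 to 92.7], and it was the second most abundant entry of spermatozoa. SNORD3@, an entry of the U3 RNA that acts in ribosomal RNA cleavage, had 11 reads in zygotes and 804 in spermatozoa, 41.0-fold lower [23.4 to 84.6]. The scaling changed the direction of none of these 7. Another U3 entry, listed as U3B.1 to U3B.4, had 323.8 reads in zygotes and 210.74 in spermatozoa. With reads scaled to the class it was within 4-fold, at a ratio of 2.67 [2.24 to 3.19], so no direction is given for U3 as a whole.

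**Figure D4:**
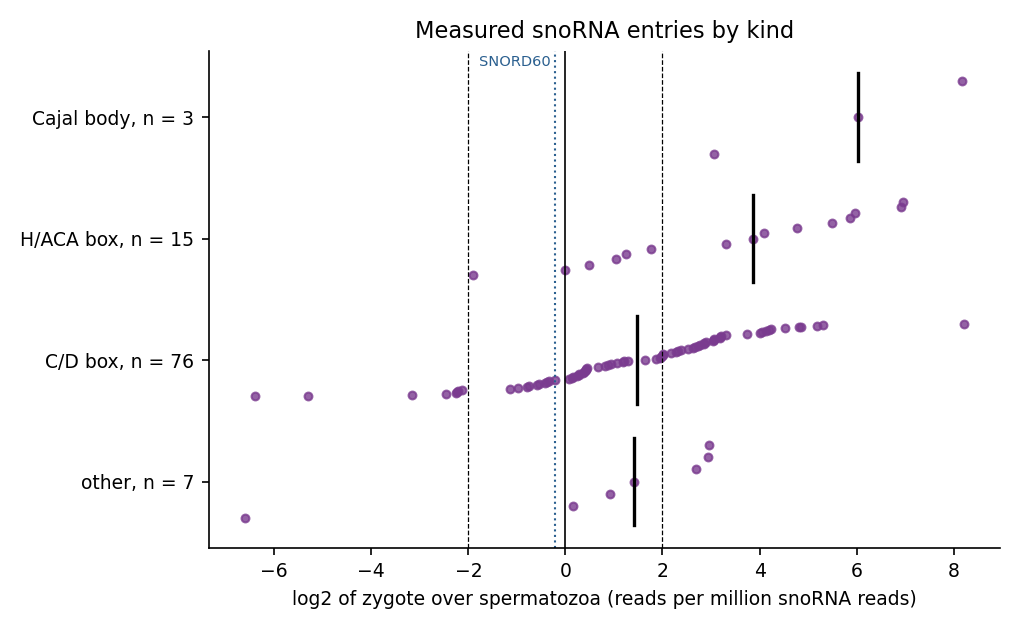
Each point is the log2 ratio of zygotes over spermatozoa, in RPM, of 1 of 101 measured snoRNA entries, in rows by kind; black ticks are medians, dashed lines mark 4-fold and the dotted line marks SNORD60. The Cajal body and H/ACA box rows have medians of 6.03 and 3.87, and the C/D box row 1.47.

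Entries listed as piRNAs were fewer in zygotes, which had fewer reads of the class, with 91007 entries with a read against 157990 in spermatozoa, and 74348 in both. Spermatozoa put 36.3% of the class on the single entry PIR64428, which took 1.76% in zygotes, 20.6-fold lower [20.5 to 20.7]. PIR64875 and PIR64874 had nearly the same reads as each other and were 7.80-fold lower. In zygotes the leader was PIR232912, with 558892 reads in zygotes and 144.5 in spermatozoa, 7375-fold higher [6286 to 8775]. PIR235614 had 321614 reads in zygotes and 81 in spermatozoa. PIR64428 and PIR75142 ranked in the top 5 of both libraries, and PIR75142 was within 4-fold. The top 50 of the libraries shared 28 entries, and the zygote's 50 took 67.7% of the class in zygotes and 74.0% in spermatozoa. Of 5039 measured entries 1797 (35.7%) were at least 4-fold higher and 1698 (33.7%) lower in zygotes. Of the higher ones 1633 had under 100 reads in spermatozoa, and of the lower ones 1596 had under 100 in zygotes. These entered through the library in which they were abundant, so the counts are a description. Reads scaled to all 4 classes gave 1376 higher and 2553 lower.

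The 2 kinds of name among piRNA entries behaved unlike each other. Of 3008 measured entries named PIR, 1473 were higher and 1113 lower, so 422 were within 4-fold. Of 1989 entries named mmur outside the mitochondrial genome, 318 were higher and 578 lower, so 1093 were within 4-fold. At this minimum of 100 reads PIR entries were thus mostly at least 4-fold apart, under this and each other scaling tried. More of the mmur entries than not were within that range, but this depended on the scaling. With reads scaled to all 4 classes 467 of 3008 PIR and 630 of 1989 mmur entries were within 4-fold. Of the mmur entries, 1004 were within 4-fold with the TMM factors, still a majority. It was a minority with the DESeq2 factors (957), the deposited factor (869) and the 5 leaders left out (883). PIR calls turned to 1230 higher and 1311 lower with reads scaled to all 4 classes. With a minimum of 20 reads 3969 of 12213 PIR entries were higher, 6120 lower and 2124 within 4-fold. With a minimum of 1 read 48440 of 96258 were within 4-fold, so no direction is given for PIR entries. At these 2 minimums 3905 of 6522 and 22770 of 30384 mmur entries were within 4-fold. With a minimum of 100 RPM in at least 1 library, a rule chosen after the data were seen, 378 of all 710 piRNA entries (53.2%) were higher and 144 (20.3%) lower. Under it 69 of 501 PIR entries and 113 of 203 mmur entries were within 4-fold. The entries farthest apart had 0 reads in one library. PIR227921 had 8687 reads in zygotes and 0 in spermatozoa, at least 5521-fold higher, and PIR24546 had 0 reads in zygotes and 7516 in spermatozoa, at least 1314-fold lower. Consecutive entries often had nearly the same reads, and counting such runs once left 4268 measured.

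The leading entries listed as endo-siRNAs did not overlap. None of the 100 most abundant entries of zygotes was among the 100 most abundant of spermatozoa. Over all entries with a read, 65787 were in both libraries, 42.4% of those of zygotes and 66.1% of those of spermatozoa. The leader of zygotes, mmur001272954, had 5340795 reads in zygotes, 17.4% of the class, and 587 reads in spermatozoa, 405-fold higher [374 to 440]. The leader of spermatozoa, mmur000042018, had 40 reads in zygotes and 126676 in spermatozoa, 9.25% of the class. The 50 most abundant entries of zygotes had 0.00397 to 0.162 reads in spermatozoa per 100 reads in zygotes. These reads are not scaled to the depth of the class. Over the whole class spermatozoa had 0.0445 reads for each 1 read in zygotes, not for each 100. An entry at equal levels would show that ratio, and all 50 lay below it. With reads scaled to the class, all 50 were at least 4-fold higher in zygotes. Whether the few reads of these entries in spermatozoa came from that sample was not tested. mmur000483664 had 0 reads in zygotes and 22400 in spermatozoa, so that the zygote level was at most 0.0975 RPM, against 16348 RPM in spermatozoa.

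Depth weighs on the count of endo-siRNA calls. Of 24086 measured entries 18880 (78.4%) were at least 4-fold higher and 1469 (6.1%) lower, but 100 reads were 3.25 RPM in zygotes and 73.0 RPM in spermatozoa. Of the higher entries 18875 had under 100 reads in spermatozoa. With reads below 3 set to 3, 10315 were higher, and with a pseudocount of 5 reads 6429. Under the minimum of 100 RPM in at least 1 library, 1901 entries were measured, of which 1111 (58.4%) were higher and 759 (39.9%) lower. Only 31 of these 1901 (1.63%) were within 4-fold, against 188 of 710 piRNA entries (26.5%). Entries whose name places them on unassembled sequence took 0.343% of the class in zygotes and 4.61% in spermatozoa, and 30 of 34 were lower under that rule. With at least 100 reads over the pair, 136 such entries were higher, 31 lower and 15 within 4-fold, and with a pseudocount of 5 reads 36 were higher and 31 lower, so no direction is given for their number.

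**Figure D5:**
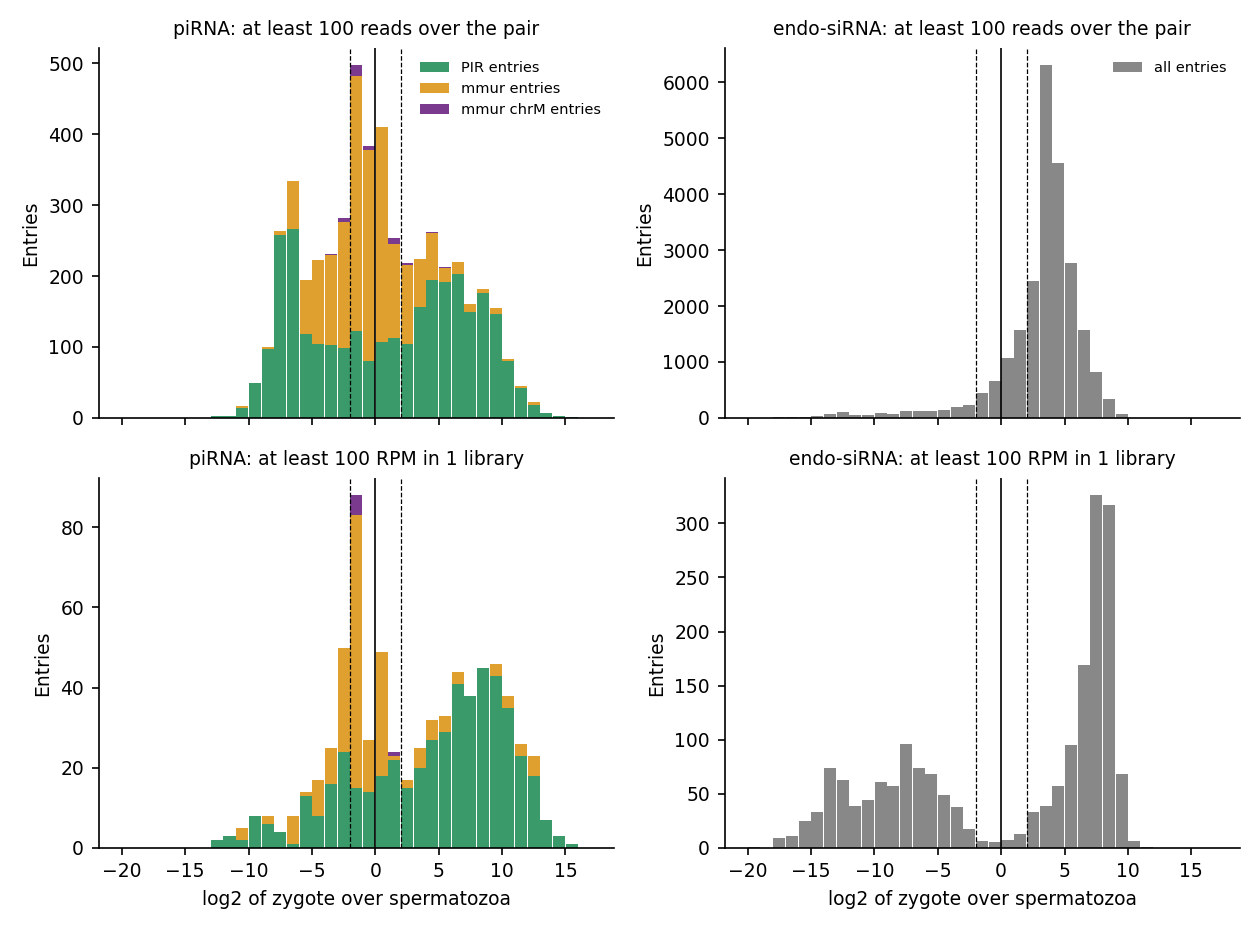
Histograms give the number of piRNA (left) and endo-siRNA (right) entries by log2 ratio of zygotes over spermatozoa, with at least 100 reads over the pair (top) and at least 100 RPM in 1 library (bottom); dashed lines mark 4-fold. In the bottom right panel 31 of 1901 endo-siRNA entries lie between the dashed lines, and in the piRNA panels most mmur entries lie near or between the dashed lines while PIR entries lie to both sides.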

How the data were processed

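Small RNA was sequenced on Illumina instruments from TRIzol total RNA and reads of 18 to 32 nucleotides were kept, per the labels' protocols. The submitters' processing notes name the mm10 build, DESeq and Bowtie 0.12.7, but not what each was used for. Which annotation was counted, and how a read that matched several entries was treated, is not given in the sources used here. The deposited read columns are estimated counts, not whole numbers in 15.3% of zygote and 17.7% of spermatozoa miRNA entries. The second deposited column, TMM per the file headers, is a signal and was used only as an alternative. Its factor was the median ratio to the read column over miRNA entries of high read count (1.37 in zygotes, 1.35 in spermatozoa). The factor was applied to every class, which assumes that it is constant within the library.

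Reads were scaled to the class total of the library, and an absent entry was taken as 0 reads. The 6 snoRNA entries that name no single snoRNA were left out (4.59% of snoRNA reads in zygotes, 0.896% in spermatozoa), and 186 were used. Log2 ratios had a pseudocount of 0.5 reads. Intervals of shares are exact (Clopper-Pearson), and those of ratios are exact intervals of 2 Poisson counts conditional on their sum, on rounded reads. A count that rounds to 0 was treated as 0. PCR copies are not independent molecules, so intervals and floors cover counting error only. With 1 library a group no test, p-value or SD was possible.

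Named by rule were the 8 highest and 8 lowest miRNA ratios, the 10 most abundant miRNAs of each library, list members and arm pairs with another leading arm. For snoRNAs the 5 highest, 5 lowest and 5 most abundant of each library were taken, and for piRNAs and endo-siRNAs the 3 highest, 3 lowest and 5 most abundant. Outside this rule, miR-31, miR-877-5p, miR-192-5p, miR-335-5p and miR-425-5p were chosen after their values were seen. The members and lists were chosen with earlier results of these data known. Gene positions are from GENCODE vM21 and mature sequences from RefSeq, both on GRCm38, the assembly also called mm10. Alternatives took TMM factors from edgeR 4.0.16 and size factors from DESeq2 1.42.0, on rounded reads, with the calculations in Python 3.11.15 and scipy 1.17.1, and the code was tested on simulated data.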

Additional observations from a re-analysis of the deposited data

How the results depend on the processing

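No paired analysis was possible because each group was 1 library, and no library could be left out. In the endo-siRNA class 3 reads were 0.0975 RPM in zygotes and 2.19 RPM in spermatozoa, so the depth of spermatozoa limits calls there. Of 254 named ratios and list medians, none at least 4-fold apart changed sign under the alternatives. Moved by over 1.5 times were the following counts, and the cause was not tested. With a minimum of 20 reads, 127 miRNAs were higher and 132 lower, 5089 piRNAs higher and 7670 lower, and 6593 endo-siRNAs lower. With a minimum of 1 read these were 211, 419, 20225, 35339 and 64148, and for snoRNAs 83 higher and 15 lower. With the deposited factor 48 miRNAs and 710 endo-siRNAs were lower. Reads scaled to all 4 classes gave 21 snoRNAs higher and 19 lower, 2553 piRNAs lower and 831 endo-siRNAs lower. The TMM and the DESeq2 factors both gave 24 snoRNAs higher and 14 lower, and totals without the 5 most abundant entries 22 and 19. A pseudocount of 5 gave 6429 endo-siRNAs higher. Chosen after seeing the data were snoRNA totals without SNORD60 (31 higher), reads below 3 set to 3 (10315 endo-siRNAs higher) and a minimum of 100 RPM in 1 library (378 piRNAs higher and 144 lower, 1111 endo-siRNAs higher and 759 lower). With those 5 entries left out, shares in zygotes were 3.23% for miRNAs, 0.185% for snoRNAs, 24.4% for piRNAs and 72.2% for endo-siRNAs. In spermatozoa they were 5.25% for miRNAs, 0.368% for snoRNAs, 82.9% for piRNAs and 11.5% for endo-siRNAs. With 20 reads over both arms in each library, 18 of 177 precursors had another leading arm, and with 500 reads 5 of 70. The share of snoRNA calls that were higher was 84.2%, against 52.5% with reads scaled to all 4 classes. For miRNAs it was 50.6%, against 68.6% with the deposited factor, and for piRNAs 51.4%, against 35.02% with reads scaled to all 4 classes. Medians near 0 changed sign for the X-linked, miR-148 and miR-152, miR-10, miR-15/16 and neuron lists under the deposited factor. The median of miR-148 and miR-152 did so also under the TMM and DESeq2 factors, that of miR-15/16 under the DESeq2 factors and both other minimums, and those of miR-17/92 and striated muscle with a minimum of 1 read.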
